A study of Mus musculus with 11 samples.

Results

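The 10 genes described here are Fkbp5, Zbtb16, Pik3ip1, Ddit4, Tsc22d3, Sgk1, Per1, Nr3c1, Errfi1 and Klf9. They are known for their ties to glucocorticoid hormones, and they are 10 of the 32285 genes in each count matrix. They were picked from measured values of these data, since several of them were high in the microglia of wild-type mice after MCAO/R. In microglia, every contrast with that group is therefore given as a description without a test. The other microglial contrasts were tested, but the choice compared microglia over all 4 groups, so these tests are not independent of it. Corticosterone was not among the measurements analysed here.

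The libraries held brain cells of 11 mice, 1 library per mouse, and were made from the right brain with a 10x Genomics 3′ kit. The sham + WT group had 3 libraries (replicates 1, 2 and 3) and the MCAO/R + WT group had 2 (replicates 1 and 2), from young adult male C57BL/6 mice. The sham + Lrg1-/- group and the MCAO/R + Lrg1-/- group had 3 libraries each (replicates 1, 2 and 5), from conventional Lrg1 knockout mice of a commercial, backcrossed C57BL/6N line. These mice were described as somewhat older than the WT mice. The knockout removes Lrg1 from all cells of the body from conception. MCAO/R is the blocking of the middle cerebral artery by a filament, followed by its withdrawal. Sham mice of both genotypes had the same anaesthesia and operation, except that the filament did not enter the internal carotid artery. The labels give no time of reperfusion for the libraries, and the paper lists several times for its experiments. All tissue was digested with enzymes and treated with red blood cell lysis buffer. By these descriptions the genotypes also differed in age, and they may have differed in background, since no substrain is named for the WT mice. The sources used here do not say whether their libraries were made and sequenced together. None of these can be told apart from the loss of Lrg1 in the contrasts of genotype below.

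Glucocorticoids are steroid hormones of the adrenal gland that rise with stress and with the time of day. They enter the cell and bind the glucocorticoid receptor, encoded by Nr3c1, which chaperones hold ready in the cytoplasm and which then moves to the nucleus and binds DNA at paired half-sites. Among the genes it turns on are Fkbp5, whose product holds the receptor back in a feedback loop, and Tsc22d3, known as GILZ, which carries much of the anti-inflammatory action of the hormone. In the brain, these hormones act on neurons, glia, vessels and immune cells alike.

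The best known binding site of the receptor is a palindrome of 15 bases, made of AGAACA, any 3 bases and TGTTCT, the reverse complement of the first 6. Promoter windows of RefSeq on GRCm38.p6, from 250 bases before to 50 bases after each start site, were searched for it on both strands. Of the 10 genes, 8 had such a window, with 17 windows in all. The palindrome was in 1 of these, that of an Sgk1 start at chr10:21993640-21993939 on the plus strand, and in 3 of all 32851 windows (0.00913%). There it begins at base 62, which is 189 bases before the start site. The half-site AGAACA, which the palindrome contains, was in 4 of the 17 windows and in 19.0% of all windows. All 4 were windows of Sgk1 or Tsc22d3. The windows of Fkbp5, Per1, Klf9, Ddit4, Pik3ip1 and Errfi1 held none. The E-box CACGTG, a site of clock factors, was in 3 of the 17 windows, those of Fkbp5, Per1 and Sgk1, and in 7.15% of all. In the Sgk1 window, the E-box shares its last bases with a half-site. Each of the 2 windows below holds a half-site, and the capitals mark the palindrome and the half-sites. They were picked among several windows of Sgk1 and Tsc22d3, genes that rose after MCAO/R in several cell types. Fkbp5 rose in several types too, and its window held neither the palindrome nor a half-site. The Tsc22d3 window lies at chrX:140600473-140600772 on the minus strand, with its half-site at base 66. A match describes these letters and says nothing of whether the receptor was bound.
Sgk1: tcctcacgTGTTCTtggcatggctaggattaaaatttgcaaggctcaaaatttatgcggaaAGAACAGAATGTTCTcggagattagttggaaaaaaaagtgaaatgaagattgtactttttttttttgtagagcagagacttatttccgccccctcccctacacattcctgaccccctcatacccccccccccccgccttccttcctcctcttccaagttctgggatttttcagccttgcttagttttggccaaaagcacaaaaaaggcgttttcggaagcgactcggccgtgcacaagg
Tsc22d3: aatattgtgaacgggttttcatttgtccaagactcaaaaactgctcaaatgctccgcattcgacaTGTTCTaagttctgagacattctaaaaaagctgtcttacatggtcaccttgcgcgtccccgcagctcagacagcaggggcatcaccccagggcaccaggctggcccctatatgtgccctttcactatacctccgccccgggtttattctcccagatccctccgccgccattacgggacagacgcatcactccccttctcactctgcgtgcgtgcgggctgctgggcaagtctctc

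Of the 155804 barcodes, 132437 passed the limits of over 500 genes, over 1000 UMIs and under 25% mitochondrial UMIs, where a UMI marks 1 captured transcript. After the removal of 7946 likely doublets, 124491 cells were left, of which 100533 fell into 18 cell types named by their markers. Of the 23958 unnamed cells, 16653 came from MCAO/R + Lrg1-/- replicate 5, where they were 51.8% of the cells. Of these 16653, 93.7% had over 1% haemoglobin UMIs. Library totals ranged from 37159497 to 171813031 UMIs. The median UMIs per cell were 9289 to 11070 in MCAO/R + WT libraries, against 3063 to 6086 in MCAO/R + Lrg1-/- libraries. At most 146 barcodes were shared by a pair of libraries. Lrg1 had no UMI in any Lrg1-/- library of the cell types shown here, and it reached 458 and 527 CPM (the gene's share of the UMIs of its cell type with library sizes scaled by edgeR's TMM) in endothelial cells of the MCAO/R + WT group. Haemoglobin transcripts made up 0.205% to 12.7% of the UMIs of the 9 tested cell types in Lrg1-/- libraries and 0.000797% to 0.157% in WT libraries, so this measure moved with every contrast of genotype below. Without cells over 1% haemoglobin UMIs, 30 combinations of gene and type in place of 34 were called between the genotypes after MCAO/R, 6 in place of 7 after sham surgery and 10 in place of 8 by the interaction, each counted as described next. Cells of the cluster named red blood cells carried 13.3% to 56.6% haemoglobin UMIs in Lrg1-/- libraries, but 0.00451% to 10.4% in WT libraries, where that name rests on little haemoglobin.

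For the tests, UMIs were summed per library and cell type and fitted with edgeR in 9 cell types: microglia, border-associated macrophages, endothelial cells, pericytes, vascular smooth muscle cells, oligodendrocytes, astrocytes, ependymal cells, and neurons and neuroblasts. Calls were made at p below 0.05 after Benjamini-Hochberg adjustment over the genes tested in the type. Outside microglia, the counts come from other cells of the same mice that served for choosing the genes. All 10 genes passed the filter on low counts in all 9 types, but in 7 of the 90 combinations of gene and type they passed only through the MCAO/R libraries. These were Pik3ip1 and Ddit4 in border-associated macrophages, Fkbp5, Zbtb16 and Pik3ip1 in pericytes, Fkbp5 in astrocytes and Zbtb16 in ependymal cells. Since the MCAO/R libraries alone admitted such a combination, a difference was favoured in advance. It is therefore given, where shown, by its values, with no test, and left out of all counts.

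After MCAO/R in WT mice, Fkbp5, Zbtb16, Tsc22d3, Sgk1 and Ddit4 rose in several types of glia, macrophages and vessel cells. Klf9 was called higher in 4 of 8 types, Per1 and Errfi1 in 2 of 8 each and Pik3ip1 in 1 of 6, and the calls of Nr3c1 were lower. Outside microglia, 39 of 73 combinations were called against the sham + WT group, 34 higher and 5 lower, and 27 of the 39 were still called whichever library was left out. The other 12 lost their call without at least 1 library, at adjusted p values of 0.0507 to 0.228. In oligodendrocytes, 7 genes rose and 1 fell, where 25.9% of all genes tested were called. In border-associated macrophages, 5 of 8 rose and 1 fell (9.25% of all genes called). In endothelial cells, 6 rose and 1 fell (12%), and in pericytes 4 of 7 rose and 1 fell (4.64%). In vascular smooth muscle cells, 5 rose and 1 fell (14.6%), though with unnamed clusters added to this type 4 of its 6 calls were left. In astrocytes 4 of 9 rose (1.84%) and in ependymal cells 3 of 9 (1.14%). In neurons and neuroblasts edgeR called 0 of the 10, with 3 at an unadjusted p below 0.05 and 0 by DESeq2, where 0.1% of all genes were called. In microglia the genes were chosen by this contrast, so only their values are given further on.

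After MCAO/R in Lrg1-/- mice, the same direction was seen for Fkbp5, Zbtb16 and Sgk1 in most types. Of 83 combinations, 35 were called against the sham + Lrg1-/- group, 28 higher and 7 lower, and 23 of the 35 were still called whichever library was left out. The other 12 lost their call at adjusted p values of 0.0501 to 0.258. No MCAO/R + WT library enters this contrast except through the shared estimate of spread, so microglia were tested here. The choice of genes compared the Lrg1-/- microglia too, so the microglial test is not independent of it. In microglia, 4 genes rose and 2 fell (36.4% of all genes called). In oligodendrocytes, 7 rose and 2 fell (15.6%). In pericytes 2 of 7, Sgk1 and Ddit4, rose (2.94%), with 20 to 41 cells per sham + Lrg1-/- library. With cells thinned to 1000 UMIs neither was called (adjusted p = 0.634 and 0.935). Ddit4 also lost its call without any 1 of 3 libraries (adjusted p = 0.0591 to 0.258). In vascular smooth muscle cells, 5 rose (15%), but with unnamed clusters added to this type 1 of the 5 was still called, and Zbtb16, Sgk1, Ddit4 and Tsc22d3 were not (adjusted p = 0.0678, 0.267, 0.149 and 0.302). Endothelial cells had 4 genes higher and 1 lower (12.6%), and border-associated macrophages had 3 higher and 2 lower (12.4%). Ependymal cells had 3 of 9 higher (5.89%). In astrocytes edgeR called 0 of 9, with 2 at an unadjusted p below 0.05 and 2 by DESeq2 (0.667%). In neurons and neuroblasts edgeR called 0 of the 10, with 0 at an unadjusted p below 0.05 and 0 by DESeq2, where 0.23% of all genes were called.

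**Figure D1:**
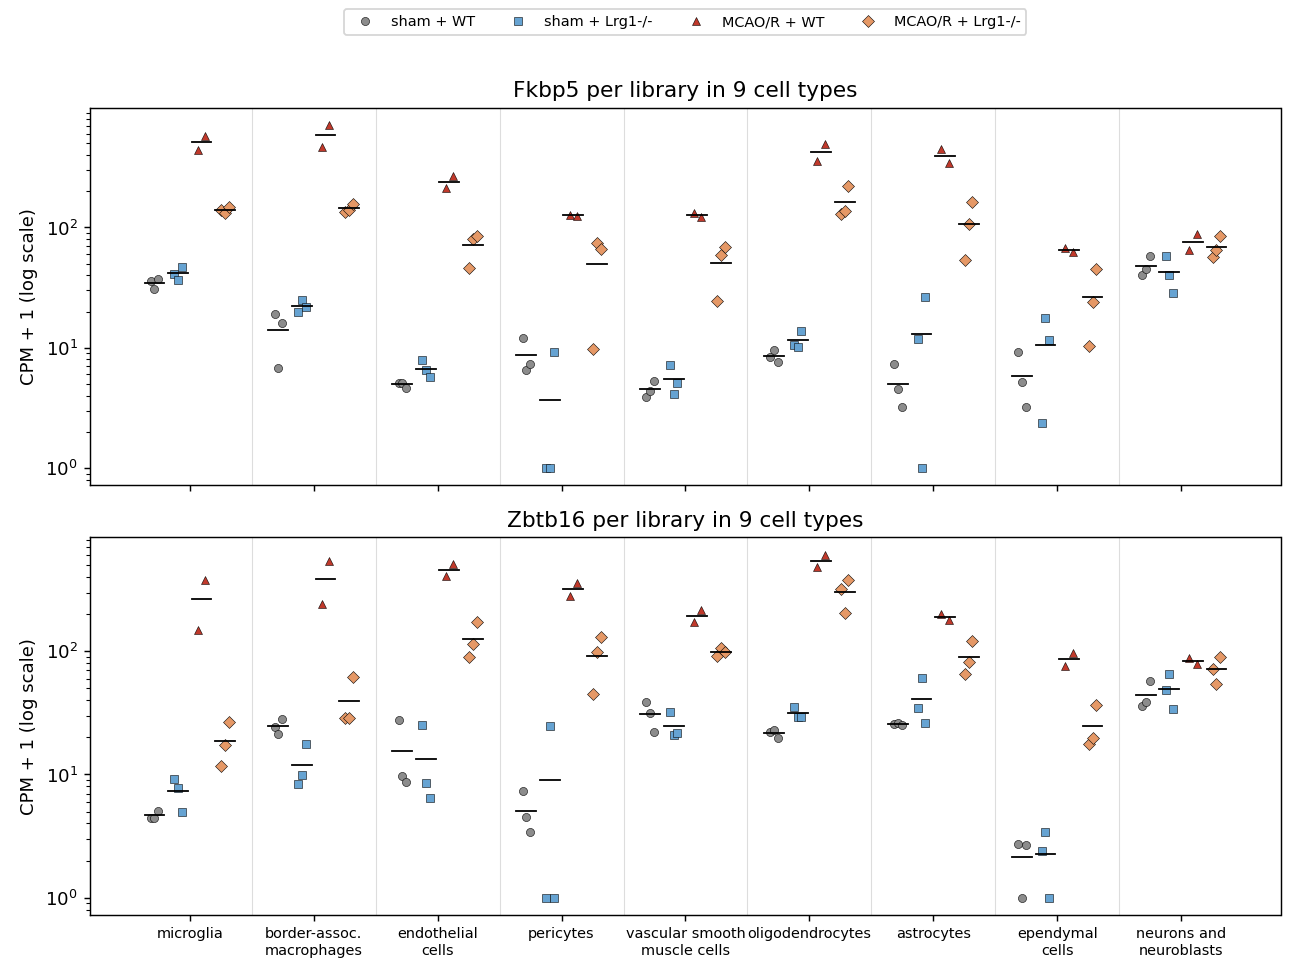
Levels of Fkbp5 (top) and Zbtb16 (bottom) as CPM + 1 on a log axis, with 1 symbol per library, the 4 groups side by side in each of 9 cell types, and a bar at the group mean. The MCAO/R + WT libraries sit above both sham groups, by the least in neurons and neuroblasts, where Fkbp5 was at 63.9 and 86.9 CPM. The microglial values chose the genes. Fkbp5 in pericytes and astrocytes and Zbtb16 in pericytes and ependymal cells passed the filter only through MCAO/R libraries. In these, a difference was favoured in advance.

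Fkbp5, the co-chaperone that keeps the receptor from its ligand, had among the largest differences of the 10. In oligodendrocytes it was at 7.44, 8.6 and 6.54 CPM in sham + WT mice, 9.54, 9.22 and 12.8 in sham + Lrg1-/- mice, 358 and 495 in MCAO/R + WT mice and 128, 137 and 218 in MCAO/R + Lrg1-/- mice. All 5 MCAO/R libraries lay above all 6 sham libraries, and both WT libraries lay above the 3 Lrg1-/- libraries after MCAO/R. The rise passed the test in WT mice (log2 fold change 5.81, SE 0.23, adjusted p = 1.18e-08). It also passed in Lrg1-/- mice (log2 fold change 4.01, SE 0.27, adjusted p = 3.56e-06). In endothelial cells Fkbp5 went from 4.1, 4.09 and 3.67 to 213 and 267 CPM in WT mice (log2 fold change 5.92, SE 0.26, adjusted p = 2e-07) and from 6.85, 5.48 and 4.73 to 45.4, 79.7 and 84.5 CPM in Lrg1-/- mice (log2 fold change 3.62, SE 0.24, adjusted p = 2.28e-05). Border-associated macrophages, the resident macrophages of the meninges and perivascular space, reached 461 and 710.0 CPM in MCAO/R + WT mice against 17.9, 5.85 and 15 in sham + WT mice (log2 fold change 5.49, SE 0.30, adjusted p = 3.02e-08). In astrocytes the values were 444 and 343 against 6.29, 3.54 and 2.21 CPM.

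Vessel wall cells had lower peaks. Vascular smooth muscle cells held 131 and 121 CPM of Fkbp5 in MCAO/R + WT mice and 23.4, 57.6 and 67.1 in MCAO/R + Lrg1-/- mice, against 2.9, 3.38 and 4.26 and 6.14, 3.14 and 4.11 CPM after sham surgery, with no overlap between surgeries. Pericytes held 126 and 124 and 8.74, 72.8 and 65.2 CPM after MCAO/R, and the lowest of these, from MCAO/R + Lrg1-/- replicate 1, lay within the range of the sham + WT libraries (11, 5.58 and 6.38 CPM). The sham + Lrg1-/- pericytes held 1 UMI of Fkbp5 in all, so no fold is given against them. Cells of the cluster named red blood cells held 108 and 139.8 CPM in MCAO/R + WT mice and 25, 38.3 and 50.4 in MCAO/R + Lrg1-/- mice, against 10.3, 0 and 6.77 and 11.8, 7.43 and 5.52 after sham surgery. In the MCAO/R + WT group these values were of the same order as those of pericytes and vascular smooth muscle cells, above those of ependymal cells (66.8 and 61 CPM), and below those of oligodendrocytes, astrocytes and macrophages. The part of free RNA in the lower levels was not tested.

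Zbtb16 encodes PLZF, a zinc finger transcription factor that glucocorticoids induce in many tissues. In endothelial cells it was at 26.7, 8.8 and 7.68 CPM in sham + WT mice and 405 and 512 in MCAO/R + WT mice (log2 fold change 5.0, SE 0.62, adjusted p = 0.00035), and at 24.4, 7.59 and 5.45 and 89.3, 115 and 171 in the matching Lrg1-/- groups (log2 fold change 3.33, SE 0.58, adjusted p = 0.00505). The groups of each genotype did not overlap. In pericytes it was at 279 and 356 CPM in MCAO/R + WT mice against 6.3, 3.49 and 2.39. Oligodendrocytes held it at 481 and 609 CPM against 21, 21.9 and 18.8 (log2 fold change 4.73, SE 0.22, adjusted p = 2.34e-08). Ependymal cells, which line the ventricles, went from 1.71, 0 and 1.67 to 75.3 and 95.9 CPM. Their sham + Lrg1-/- group held 2 UMIs in all, and its MCAO/R counterpart stood at 16.8, 18.7 and 36 CPM. Without the 7 combinations above, Fkbp5 and Zbtb16 were each called higher after MCAO/R in WT mice in 5 of 6 types, every time under every left-out library. In Lrg1-/- mice each was called in 5 of 7 types. For Fkbp5 all 5 calls held under every left-out library, and for Zbtb16 3 did. The others were lost without at least 1 library, in border-associated macrophages (adjusted p = 0.0568 to 0.127) and, without MCAO/R + Lrg1-/- replicate 5, in microglia (adjusted p = 0.0501).

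**Figure D2:**
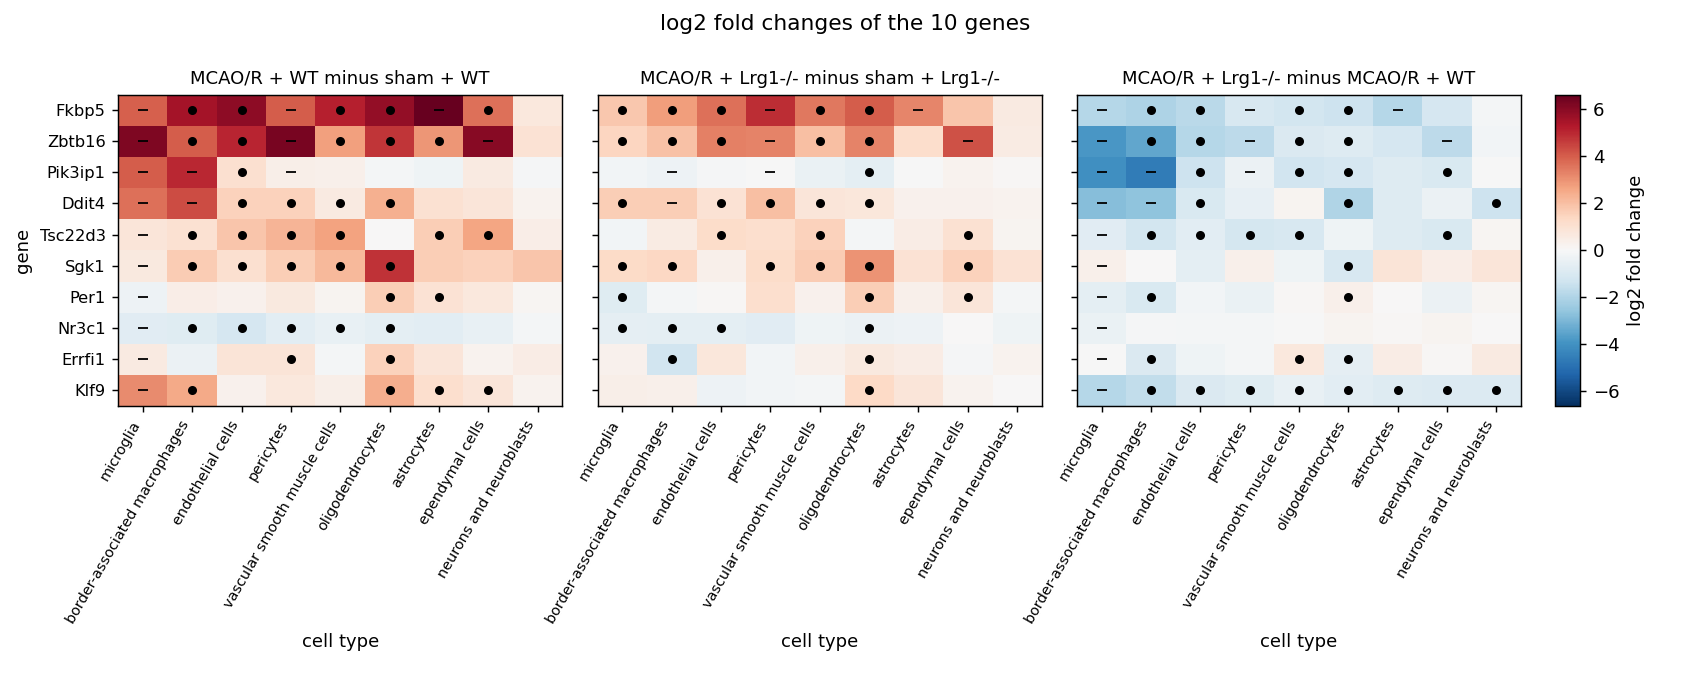
Log2 fold changes of the 10 genes (rows) in 9 cell types (columns) for 3 contrasts, red for higher and blue for lower in the first-named group. Dots mark edgeR calls at an adjusted p below 0.05 and dashes mark values given with no test, which are the microglial values that chose the genes and the 7 combinations that passed the filter only through MCAO/R libraries. The rows of Fkbp5 and Zbtb16 are red in the first and second panels and blue in the third, and Nr3c1 is pale or blue in the first 2 panels.

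Nr3c1, the receptor itself, went the other way. In oligodendrocytes it was at 230.0, 273 and 291 CPM in sham + WT mice and 177 and 160.4 in MCAO/R + WT mice (log2 fold change -0.65, SE 0.12, adjusted p = 0.0015), without overlap. In endothelial cells it was at 264, 317 and 307 and 133 and 142 CPM in these groups (log2 fold change -1.10, SE 0.20, adjusted p = 0.00365), a call lost without MCAO/R + WT replicate 1 (adjusted p = 0.056). It was called lower in WT mice in 5 of 8 types, of which the call in oligodendrocytes held under every left-out library. The calls in border-associated macrophages, pericytes and vascular smooth muscle cells were each lost without at least 2 of the WT libraries (adjusted p = 0.0507 to 0.21). In microglia of Lrg1-/- mice it fell from 216, 213 and 208 to 148, 131 and 146 CPM (log2 fold change -0.59, SE 0.10, adjusted p = 0.000582), and this call held too. The choice of genes compared these microglia as well, so the microglial test is not independent of it. After MCAO/R, Nr3c1 did not pass the test between genotypes in any of 8 types, with log2 fold changes from -0.13 to 0.18.

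Other genes that handle the hormone or the receptor moved less uniformly. Nr3c2 encodes the mineralocorticoid receptor, which binds corticosterone with high affinity, and it was lower after MCAO/R in endothelial cells of MCAO/R + WT mice (90.1 and 87.6 CPM against 221, 202 and 268, log2 fold change -1.37, adjusted p = 0.00396). Hsd11b1, whose enzyme makes active hormone from its inactive form, was highest in astrocytes among the 9 types, at 87.8, 153 and 94.6 CPM in sham + WT mice, and reached 39.8 and 13.1 CPM in pericytes of MCAO/R + WT mice. After MCAO/R its astrocyte level was 129 and 128 CPM in WT and 21.4, 31.9 and 18.5 in Lrg1-/- mice (log2 fold change -2.37, adjusted p = 0.00619 between them). It was also at 38.2, 75.7 and 36.6 CPM in sham + Lrg1-/- astrocytes (log2 fold change -1.18 against sham + WT, adjusted p = 0.0566), and the interaction was not called (-1.2, adjusted p = 0.865). Hsd11b2, which inactivates the hormone, stayed below 3 CPM in every library of the 9 types. Fkbp4, the co-chaperone that helps the receptor reach the nucleus, was lower in oligodendrocytes of MCAO/R + WT mice than in sham + WT mice (67.6 and 83 against 104, 104 and 106 CPM, log2 fold change -0.47, adjusted p = 0.00551).

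Sgk1 encodes a serum- and glucocorticoid-induced kinase of the PI3K pathway that controls ion channels, and its largest rise was in oligodendrocytes, the myelin-forming cells. It was at 89.9, 70.3 and 52.7 CPM in sham + WT mice and 1825 and 2110.4 in MCAO/R + WT mice (log2 fold change 4.79, SE 0.25, adjusted p = 6.79e-08), and at 139, 119.9 and 100.2 and 779, 772 and 1253 in the matching Lrg1-/- groups (log2 fold change 2.94, SE 0.23, adjusted p = 9e-06). All MCAO/R libraries lay above all sham libraries, and the WT libraries above the Lrg1-/- libraries after MCAO/R. In vascular smooth muscle cells it rose from 61.3, 49.3 and 36.8 to 212 and 219 CPM in WT mice (log2 fold change 2.15, SE 0.17, adjusted p = 7.17e-07) and from 57.8, 57 and 52.4 to 140.4, 183 and 205 CPM in Lrg1-/- mice (log2 fold change 1.67, SE 0.17, adjusted p = 1.71e-05). With unnamed clusters added, the latter was 0.91 and no longer called (adjusted p = 0.267). Between the MCAO/R groups, edgeR called Sgk1 in 1 of 8 types, oligodendrocytes (log2 fold change -1.07, SE 0.23, adjusted p = 0.00348). In endothelial cells it was also called lower in Lrg1-/- mice by DESeq2 (log2 fold change -0.65, adjusted p = 0.0427), with thinned cells (-0.80, adjusted p = 0.0222) and with no filter on low counts (-0.66, adjusted p = 0.0392), and with no such filter it was called higher in neurons and neuroblasts (0.77, adjusted p = 0.0161). In microglia of Lrg1-/- mice it rose from 431, 325 and 309 to 873, 1064 and 595 CPM (log2 fold change 1.25, SE 0.22, adjusted p = 0.000889). Within the microglial clusters described below, these groups overlapped in c1.0 (489, 496 and 408 against 643, 486 and 412 CPM). They also overlapped in c1.2 (450, 300 and 286 against 692, 558 and 440). They did not overlap in c1.1 (468, 408 and 301 against 1080, 1088 and 661). Cluster c1.1 held 8.37% of sham + Lrg1-/- and 59.1% of MCAO/R + Lrg1-/- microglia, and the part of this in the call was not tested. The choice of genes compared these microglia as well, so the microglial test of Sgk1 is not independent of it.

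**Figure D3:**
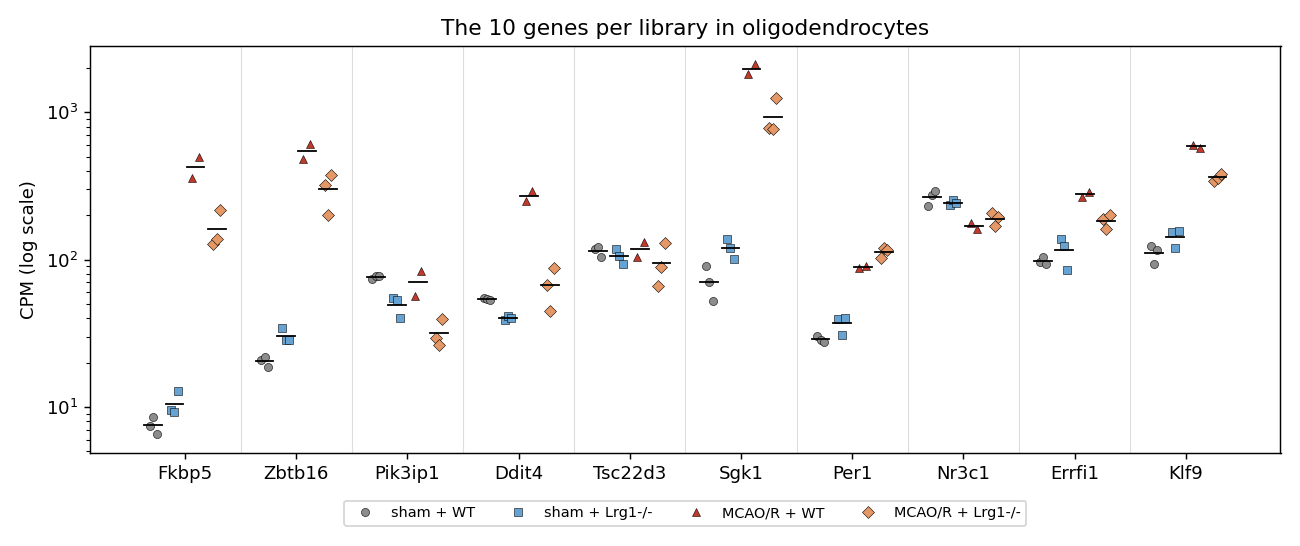
The 10 genes in oligodendrocytes as CPM on a log axis, with 1 symbol per library, the 4 groups side by side and a bar at the group mean. Sgk1 of MCAO/R + WT mice is the highest set of points (1825 and 2110.4 CPM), and Nr3c1 is the gene whose MCAO/R libraries lie below its sham libraries in both genotypes.

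Klf9, a transcription factor that takes part in stress and circadian responses, rose in oligodendrocytes from 123, 93.1 and 116 CPM in sham + WT mice to 602 and 572 in MCAO/R + WT mice (log2 fold change 2.41, SE 0.14, adjusted p = 7.83e-08). In Lrg1-/- mice it went from 154, 119.9 and 155 to 342, 361 and 379.7 CPM (log2 fold change 1.33, SE 0.13, adjusted p = 5.06e-05), and the MCAO/R genotypes did not overlap. Border-associated macrophages showed it at 73.5, 69.6 and 44 CPM after sham surgery and 272 and 424 after MCAO/R in WT mice (log2 fold change 2.48, SE 0.32, adjusted p = 0.000185). Per1, a core repressor of the circadian clock, rose in oligodendrocytes from 30.2, 28.3 and 27.8 to 88 and 91.2 CPM in WT mice (log2 fold change 1.64, SE 0.11, adjusted p = 3.11e-07) and from 39.8, 30.7 and 40.3 to 103, 121 and 117 CPM in Lrg1-/- mice (log2 fold change 1.62, SE 0.12, adjusted p = 7.36e-06). In microglia of Lrg1-/- mice, Per1 fell from 133, 135 and 148 to 64.3, 79.7 and 89.3 CPM (log2 fold change -0.82, SE 0.15, adjusted p = 0.00101). Within the microglial clusters described below, these groups overlapped in c1.0 (115, 106 and 142 against 90.9, 142 and 121 CPM). They did not overlap in c1.1 or c1.2. The part of the clusters in the call was not tested. The choice of genes compared these microglia as well, so the microglial test of Per1 is not independent of it.

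Ddit4, Pik3ip1 and Errfi1 act as brakes on growth signals. Ddit4 encodes REDD1, which restrains mTORC1, and in oligodendrocytes it was at 54.6, 54.4 and 53.1 CPM in sham + WT mice and 249 and 291 in MCAO/R + WT mice (log2 fold change 2.32, SE 0.19, adjusted p = 1.03e-06). In Lrg1-/- oligodendrocytes it was at 38.7, 41.2 and 40.3 and 67.7, 44.9 and 87.9 CPM (log2 fold change 0.75, SE 0.21, adjusted p = 0.0251), a call lost without MCAO/R + Lrg1-/- replicate 5 or any of the 3 sham + Lrg1-/- replicates (adjusted p = 0.0636 to 0.115) and with cells thinned to 1000 UMIs (adjusted p = 0.0885). Pik3ip1, an inhibitor of PI3K, was at 5.38, 2.92 and 4.83 CPM in sham + WT border-associated macrophages and 51 and 234 in MCAO/R + WT mice, with the MCAO/R replicates far apart. In endothelial cells it was at 128 and 143 CPM against 63.2, 56.7 and 72.9 (log2 fold change 1.07, SE 0.21, adjusted p = 0.00652), a call lost without MCAO/R + WT replicate 2 (adjusted p = 0.0508). Errfi1, a feedback inhibitor of EGFR signalling, rose in oligodendrocytes from 96.6, 104 and 93.5 to 265 and 289 CPM in WT mice (log2 fold change 1.5, SE 0.15, adjusted p = 5.54e-06) and from 139, 123 and 85.5 to 187, 162 and 199.5 CPM in Lrg1-/- mice (log2 fold change 0.63, SE 0.14, adjusted p = 0.0103). In border-associated macrophages of Lrg1-/- mice it was at 348, 352 and 133 CPM after sham surgery and 70.4, 151 and 132 after MCAO/R (log2 fold change -1.25, SE 0.30, adjusted p = 0.0133), where the groups overlapped and the call was lost without sham + Lrg1-/- replicate 1 or 2 (adjusted p = 0.076 and 0.0666) and with cells thinned to 1000 UMIs (adjusted p = 0.0825).

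Tsc22d3 rose in WT mice most in cells of the vessel wall and the ventricle lining. In vascular smooth muscle cells it was at 64.6, 44.5 and 44.3 CPM in sham + WT mice and 298 and 334 in MCAO/R + WT mice (log2 fold change 2.64, SE 0.22, adjusted p = 1.11e-06), and at 56.9, 58.8 and 34.9 and 92.2, 177 and 167 in the matching Lrg1-/- groups (log2 fold change 1.54, SE 0.22, adjusted p = 0.000223). With unnamed clusters added, the latter was 0.54 and no longer called (adjusted p = 0.302). Ependymal cells held 68.1, 66.5 and 47.9 and 326 and 419.5 CPM in the WT groups (log2 fold change 2.61, SE 0.23, adjusted p = 5.12e-05), and endothelial cells 171, 139 and 131 and 479 and 557 (log2 fold change 1.82, SE 0.15, adjusted p = 1.79e-05). None of these WT groups overlapped. In oligodendrocytes, where most of the 10 rose, Tsc22d3 was at 119, 122 and 104 and 104 and 132 CPM in the WT groups, which overlapped (log2 fold change 0.03, adjusted p = 0.931).

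Between the genotypes after MCAO/R, the genes were lower in Lrg1-/- mice wherever they were called, apart from Errfi1 in vascular smooth muscle cells and Per1 in oligodendrocytes. Outside microglia, 34 of 73 combinations were called, 32 lower and 2 higher, and 18 held under every left-out library. The other 16 lost their call at adjusted p values of 0.0511 to 0.336. Without MCAO/R + WT replicate 2, 18 were called. In border-associated macrophages, 6 of 8 were lower (20.5% of all genes called). In oligodendrocytes 7 were lower and 1 was higher (29.6%), and in vascular smooth muscle cells 5 were lower and 1 was higher (18.3%), of which 2 were still called with unnamed clusters added. Endothelial cells had 6 lower (23.4%), pericytes 2 of 7 (14.1%), ependymal cells 3 of 9 (3.8%), astrocytes 1 of 9 (3.44%) and neurons and neuroblasts 2 (4.59%). This contrast shares the MCAO/R + WT libraries with the contrast against sham surgery. In border-associated macrophages, 11 of 13 immediate early and dissociation genes were also lower in MCAO/R + Lrg1-/- mice, and the part of dissociation in the contrast was not tested. With every cell thinned to 1000 UMIs, 24 of the 66 combinations that could then be tested were called.

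Fkbp5 was called lower in 4 of 6 types, each time under every left-out library: border-associated macrophages (log2 fold change -2.03, SE 0.26, adjusted p = 0.000159), endothelial cells (log2 fold change -1.78, SE 0.22, adjusted p = 0.000874), oligodendrocytes (log2 fold change -1.39, SE 0.20, adjusted p = 0.000282) and vascular smooth muscle cells (log2 fold change -1.21, SE 0.21, adjusted p = 0.00125). Zbtb16 was called lower in 4 of 6 types, 2 of them under every left-out library, with the largest difference in border-associated macrophages, where the MCAO/R + Lrg1-/- libraries held 27.7, 27.7 and 60.6 CPM against 241 and 536 (log2 fold change -3.44, SE 0.35, adjusted p = 2.61e-05). The call in endothelial cells was lost without replicate 1 or 2 of either MCAO/R group (adjusted p = 0.0769 to 0.139), and that in oligodendrocytes without MCAO/R + WT replicate 2 (adjusted p = 0.0514). In border-associated macrophages, Pik3ip1 was at 4.27, 4.53 and 11.2 CPM in MCAO/R + Lrg1-/- mice against 51 and 234 in MCAO/R + WT mice. The former values rest on 2, 10 and 5 UMIs. This combination passed the filter only through MCAO/R libraries, so a difference was favoured in advance and no test is given. Klf9 was called lower in all 8 types, but 2 of these calls, in border-associated macrophages (log2 fold change -1.64, SE 0.33, adjusted p = 0.003) and oligodendrocytes (log2 fold change -0.70, SE 0.13, adjusted p = 0.00188), held under every left-out library. The other 6 were lost without at least 1 library, and MCAO/R + WT replicate 2 was among those libraries in all of them (adjusted p = 0.0591 to 0.217 over the libraries). In oligodendrocytes, Per1 was higher in Lrg1-/- mice (log2 fold change 0.34, SE 0.11, adjusted p = 0.0352), but the call was lost without any of 6 libraries (adjusted p = 0.053 to 0.159) and with cells under 10% mitochondrial UMIs (0.19, adjusted p = 0.241). In vascular smooth muscle cells, Errfi1 was at 1037, 936 and 1266 CPM in MCAO/R + Lrg1-/- mice and 661 and 667 in MCAO/R + WT mice (log2 fold change 0.70, SE 0.16, adjusted p = 0.00581), a call lost without MCAO/R + WT replicate 1 or 2 (adjusted p = 0.0511 to 0.0583). With unnamed clusters added, this difference was 0.079 (adjusted p = 0.905).

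Several of these types were made up of clusters that the groups filled differently. In oligodendrocytes, cluster c3.0 (median 12716 UMIs per cell) held 84.9% of the cells of MCAO/R + WT mice, 18.6% of MCAO/R + Lrg1-/- mice, 71.6% of sham + WT mice and 32.5% of sham + Lrg1-/- mice, and cluster c3.1 (median 2909 UMIs) held 5.41%, 73.4%, 11.5% and 49.4%, in the same order. The genotype contrasts in oligodendrocytes, the interaction below among them, therefore compared cells of different clusters and depths, and the part of this in the calls was not tested. Levels within the clusters, as CPM of the UMIs of a cluster's cells, are a description, since the genes also formed the clusters. Within c3.0, Fkbp5 was at 404 and 534 CPM in MCAO/R + WT mice and 125, 134 and 216 in MCAO/R + Lrg1-/- mice, and within c3.1 at 383 and 381 against 130.1, 143 and 212. Sgk1 was at 2123 and 2243 against 870.3, 961 and 1388 CPM within c3.0, and at 1314 and 1742 against 729.6, 728 and 1114 within c3.1. Ddit4 was at 289 and 306 against 93.7, 58.3 and 103 CPM within c3.0, and at 142 and 215 against 47.9, 37.7 and 70.8 within c3.1. For these 3 genes, the MCAO/R + WT libraries lay above the MCAO/R + Lrg1-/- libraries within both clusters, but Ddit4 was lower in c3.1 than in c3.0 in each MCAO/R library.

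In endothelial cells, cluster c2.0 held 64.7% of the cells of MCAO/R + WT mice and 18.3% of MCAO/R + Lrg1-/- mice, and cluster c2.1 held 19.2% and 65.04%. Zbtb16 was at 485 and 560.04 CPM in MCAO/R + WT mice and 160, 199 and 283 in MCAO/R + Lrg1-/- mice within c2.0, and at 197 and 238 against 43.6, 85.9 and 135 within c2.1. It was lower in c2.1 than in c2.0 in every MCAO/R library, while Fkbp5 was near the same level in both, at 194 and 248 against 55.3, 70.97 and 83.8 CPM within c2.0 and at 177 and 213 against 37.9, 72.2 and 84.2 within c2.1. Border-associated macrophages formed c6.2 (median 11095 UMIs), with 88.9% of the cells of MCAO/R + WT mice and 59.7% of MCAO/R + Lrg1-/- mice, and c0.3 (median 1989 UMIs), with 11.1% and 40.3%. Fkbp5 was at 446 and 712 CPM against 210.4, 138 and 182 within c6.2, and at 192 and 283 against 38.7, 112 and 83.4 within c0.3. In astrocytes, c7.0 held 78.9% and 38.3% of the cells of these groups. In ependymal cells, c10.1 (median 5407 UMIs) held 6.81% and 31.6% and c10.2 (median 13795 UMIs) 45.6% and 19.97%, and among neurons and neuroblasts c8.2 (median 27059 UMIs) held 17.8% and 4.49%. Pericytes and vascular smooth muscle cells were 1 cluster each.

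Whether the response to MCAO/R itself differed between genotypes was tested with an interaction term, and it reached the threshold in 8 of 73 combinations outside microglia, all with the smaller rise in Lrg1-/- mice. Of these, 6 were in oligodendrocytes (2.67% of all genes called), where Sgk1 (difference of log2 fold changes -1.85, SE 0.32, adjusted p = 0.00901), Klf9 (-1.07, SE 0.19, adjusted p = 0.00915) and Ddit4 (-1.57, SE 0.28, adjusted p = 0.0103) held under every left-out library. With cells thinned to 1000 UMIs, Ddit4 (adjusted p = 0.071), Fkbp5 (0.344) and Zbtb16 (0.0682) lost their calls in oligodendrocytes. The count of 8 fell to 3 without MCAO/R + WT replicate 2, sham + Lrg1-/- replicate 2 or sham + WT replicate 3, to 4 without sham + Lrg1-/- replicate 1, and to 5 without sham + Lrg1-/- replicate 5 or sham + WT replicate 1. Fkbp5 passed in border-associated macrophages (0.0927%) and endothelial cells (0.383%), though without 8 of the libraries in turn for the former (adjusted p = 0.052 to 0.133), with thinned cells (adjusted p = 0.313), and without MCAO/R + WT replicate 2, sham + Lrg1-/- replicate 2 or sham + WT replicate 3 for the latter (adjusted p = 0.0533 to 0.065) it did not. In pericytes (0.185%) edgeR called 0 of 7, with 3 at an unadjusted p below 0.05 and 0 by DESeq2, and in vascular smooth muscle cells (0.94%) 0, with 6 unadjusted and 0 by DESeq2. In astrocytes (0%) edgeR called 0, with 2 unadjusted and 1 by DESeq2, and in ependymal cells (0%) 0, with 2 unadjusted and 1 by DESeq2. In neurons and neuroblasts (0%) it called 0, with 0 unadjusted and 0 by DESeq2. Microglia are left out here, since the choice of genes used this term's libraries.

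After sham surgery, edgeR called 7 of 83 combinations between the genotypes, which fell on 5 of the 10 genes. Over the cell types, 1.25% to 27.4% of all genes were called in this contrast. The count of 7 therefore does not set these genes apart from others. Of the 7 calls, 3 were higher and 4 lower in Lrg1-/- mice, and 1 held under every left-out library. That was Nr3c1 in microglia, at 216, 213 and 208 CPM against 319.6, 319 and 315 in sham + WT mice (log2 fold change -0.58, SE 0.10, adjusted p = 0.00122). In microglia 1 of the 10 genes was called, against 23.7% of all genes. The choice of genes compared these microglia as well, so the microglial test is not independent of it. Of the microglial clusters described below, c1.0 held 17.4% of sham + Lrg1-/- and 91.8% of sham + WT microglia. Within c1.0, Nr3c1 was at 244, 236 and 227 against 309, 303 and 304 CPM. The groups overlapped within c1.1 (196, 248 and 226 against 263, 246 and 233 CPM) and c1.2 (235, 230 and 219 against 277, 229 and 306). The count of calls was 3 without sham + Lrg1-/- replicate 2, sham + WT replicate 2 or sham + WT replicate 3. Nr3c1 was also called lower in endothelial cells (27.4% of all genes), Sgk1 higher in oligodendrocytes (12.4%), and Sgk1 and Errfi1 higher in pericytes (13%). Pik3ip1 was called lower in astrocytes (3.97%) and Ddit4 lower in neurons and neuroblasts (6.91%). These 6 calls were each lost without at least 2 libraries (adjusted p = 0.0506 to 0.176). In border-associated macrophages (2.49%) edgeR called 0, with 3 at an unadjusted p below 0.05 and 1 by DESeq2. In vascular smooth muscle cells (11.8%) it called 0, with 2 unadjusted and 0 by DESeq2, but with unnamed clusters added Sgk1 (log2 fold change 1.67, adjusted p = 0.0204) and Tsc22d3 (1.18, adjusted p = 0.0166) were called higher in Lrg1-/- mice. In ependymal cells (1.25%) it called 0, with 4 unadjusted and 0 by DESeq2.

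**Figure D4:**
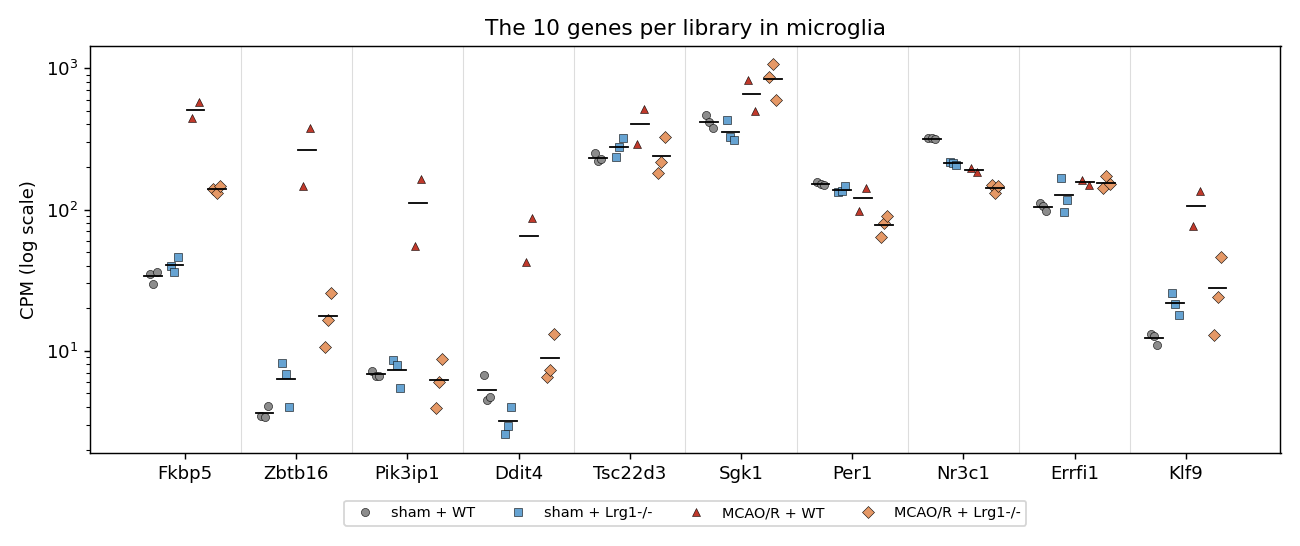
The 10 genes in microglia as CPM on a log axis, with 1 symbol per library, the 4 groups side by side and a bar at the group mean. These values chose the genes. The MCAO/R + WT libraries stand highest in Fkbp5, Zbtb16, Pik3ip1, Ddit4 and Klf9.

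In microglia, the values that led to the choice were as follows. Fkbp5 was at 35.2, 29.7 and 36.2 CPM in sham + WT mice, 39.9, 35.8 and 46.1 in sham + Lrg1-/- mice, 443 and 577 in MCAO/R + WT mice and 139, 131 and 147 in MCAO/R + Lrg1-/- mice. Zbtb16 was at 3.47, 3.39 and 4.1, 8.25, 6.8 and 4, 147 and 380.3 and 10.6, 16.4 and 25.8 CPM in the same order. Pik3ip1 was at 7.23, 6.63 and 6.68, 8.65, 7.9 and 5.45, 55.3 and 166 and 3.93, 6.03 and 8.69 CPM. The pair of MCAO/R + WT libraries differed from each other most in Pik3ip1 and Zbtb16, with replicate 2 the higher in both. Klf9 was at 76.3 and 136 CPM in MCAO/R + WT mice and 13, 23.9 and 46.1 in MCAO/R + Lrg1-/- mice, and Ddit4 at 42.7 and 87 and 6.49, 7.35 and 13. Sgk1, at 820.2 and 499.5 CPM in MCAO/R + WT mice and 873, 1064 and 595 in MCAO/R + Lrg1-/- mice, overlapped between them. In the contrast that did not use the MCAO/R + WT libraries, Fkbp5 rose in Lrg1-/- mice (log2 fold change 1.78, SE 0.14, adjusted p = 1.33e-05), as did Ddit4 (log2 fold change 1.62, SE 0.39, adjusted p = 0.0055). The Lrg1-/- values are among those compared in the choice, so these tests are not independent of it.

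A UMI of Fkbp5 was found in 94.5% ± 1.15 (SD, n = 2) of microglia in MCAO/R + WT mice, 65.95% ± 10.1 (SD, n = 3) in MCAO/R + Lrg1-/- mice, 20.6% ± 3.11 (SD, n = 3) in sham + WT mice and 20.9% ± 4.68 (SD, n = 3) in sham + Lrg1-/- mice. With every cell thinned to 1000 UMIs, the shares were 37.3%, 14.1%, 3.05% and 4.55%, in the same order. In the cluster named red blood cells they were 38.0%, 9.47%, 1.89% and 1.33% unthinned, and 22.4%, 3.51%, 1.89% and 1.01% thinned. For Zbtb16 the microglial shares were 69.2%, 14.0%, 2.65% and 3.17% unthinned and 20.4%, 2.63%, 0.333% and 0.770% thinned, against 7.71%, 3.998%, 1.15% and 0.298% in the cluster named red blood cells. The mean MCAO/R + WT shares of both genes in microglia were above those of that cluster, with and without thinning. Thinned Fkbp5 shares were 37.3% ± 6.18 in microglia against 22.4% ± 10.8 in that cluster (SD, n = 2). Thinned Zbtb16 shares were 20.4% ± 11.3 against 1.26% ± 1.78 (SD, n = 2). The microglial values chose the genes, and the name of that cluster rests on little haemoglobin in WT libraries. The comparison therefore cannot tell how much free RNA added to these shares, which was not tested.

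Microglia formed 3 clusters (c1.0, c1.1 and c1.2), which the groups filled differently. Cluster c1.0 held 91.8% of the microglia of sham + WT mice, 17.4% of sham + Lrg1-/- mice, 65.8% of MCAO/R + WT mice and 4.85% of MCAO/R + Lrg1-/- mice. Cluster c1.1 held 59.1% of those of MCAO/R + Lrg1-/- mice and 31.9% of those of MCAO/R + WT mice, and cluster c1.2 held 74.3% of those of sham + Lrg1-/- mice. The contrasts tested in microglia therefore also compared cells of different clusters, and the part of this in the calls was not tested. Levels within these clusters used the genes that also formed them, so they are a description. Within c1.0, Fkbp5 was at 560 and 605 CPM in MCAO/R + WT mice and 214, 229 and 214 in MCAO/R + Lrg1-/- mice. Within c1.1 the values were 320.1 and 355 against 134, 116 and 131, and within c1.2 they were 389 and 462 against 182, 169 and 161. In each of the 3 clusters, the MCAO/R + WT libraries lay above the MCAO/R + Lrg1-/- libraries and these above every sham library, whose range was 16.6 to 69.9 CPM. Sgk1 was highest in c1.1 of both MCAO/R groups, at 934 and 678 CPM in WT and 1080.4, 1088 and 661 in Lrg1-/- mice.

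**Figure D5:**
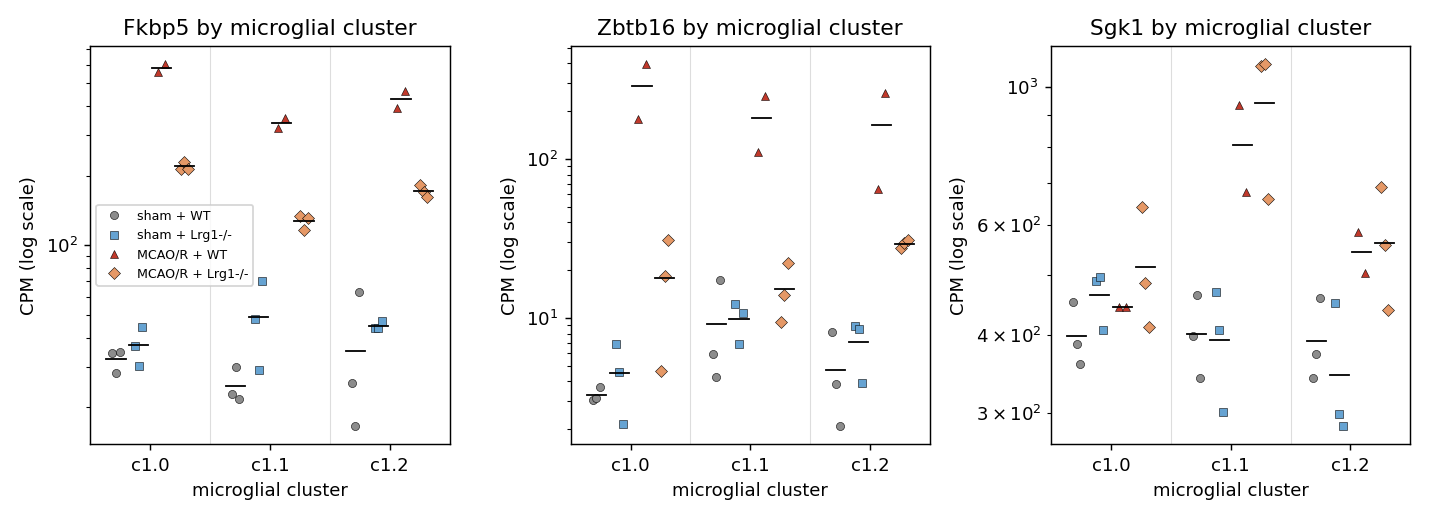
Levels of Fkbp5, Zbtb16 and Sgk1 in each of the 3 microglial clusters as CPM on a log axis, with 1 symbol per library and a bar at the group mean. Fkbp5 of MCAO/R + WT mice is above the other groups in every cluster, while Sgk1 overlaps between the MCAO/R groups.

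Over the 11 libraries of microglia, the genes whose log2 CPM followed Fkbp5 most closely, among 6278 genes of at least 20 CPM on average, were Nlrp3 (Pearson's r = 0.975), Rftn1 (0.973), Vps4b (0.969), Fam219a (0.968) and Cd300lf (0.967). Nlrp3 encodes the sensor of an inflammasome, and its mean was 1087 CPM in MCAO/R + WT mice, 590.3 in MCAO/R + Lrg1-/- mice and 311 and 342 after sham surgery in WT and Lrg1-/- mice. These libraries share groups and depth, so the values of r describe the 4 groups more than 11 points.

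The list of 30 other glucocorticoid targets, which does not include the 10 genes but shares Per2 with the clock list, was chosen with earlier results of these data known. In oligodendrocytes after MCAO/R in WT mice, all 30 were tested, 23 rose and 0 fell, with a median log2 fold change of 2.05 against 0.01 over all genes, of which 25.9% were called. The lowest adjusted p values were those of Fam107a (log2 fold change 5.04), Hif3a (6.32), the cell cycle inhibitor Cdkn1a (6.02) and the kinase Map3k6 (6.01). Oligodendrocytes had the highest count, and over the 8 types outside microglia 4 to 23 rose, where 0.1% to 25.9% of all genes were called. In microglia, 21.5% of all genes were called in this contrast, 20.8% between genotypes after MCAO/R and 7.77% by the interaction, and no count of the 10 genes or the list is read against these shares. In Lrg1-/- oligodendrocytes, 15 rose and 2 fell after MCAO/R (15.6% of all genes called). Between genotypes after MCAO/R, 17 of 27 tested were lower and 0 higher in border-associated macrophages (20.5% of all genes called), led by Txnip, Dusp1, Foxo3 and Zfp36, and in oligodendrocytes 10 were lower and 4 higher (29.6%), led by Klf15, Pdk4, Sesn1 and Arrdc2, all lower. Over the 8 types outside microglia, 3 to 17 were lower in that contrast, where 3.44% to 29.6% of all genes were called.

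The other lists are set against the 25.9% of all genes that were called in oligodendrocytes after MCAO/R in WT mice. Of 16 receptor and ligand handling genes, 15 were tested there, of which 4 fell and 1, Ncoa2, rose, a share near that background. Those that fell were Nr3c1, Fkbp4, Ptges3 and Hsp90ab1. Of 15 clock genes, 7 rose there, led by Cry2, Tef, Cry1 and Per2, and between genotypes after MCAO/R 8 were lower and 1 was higher in vascular smooth muscle cells, where 18.3% of all genes were called in that contrast. This was the highest count of the 8 types outside microglia, which had 0 to 8 lower. Of 12 hypoxia genes, 4 rose and 3 fell, with Bnip3, Slc2a1 and Adm higher and Ndrg1 lower. Of 8 tested genes of the integrated stress response, 5 rose, among them Sesn2, Atf4 and Slc7a11, and 1 fell, Vldlr. Of 13 immediate early and dissociation genes, 5 rose, among them Egr1, Fos, Junb and Fosb, and 1 fell. Of 7 tracers of free RNA, 5, the haemoglobin genes among them, were higher in Lrg1-/- mice after MCAO/R in all 8 types outside microglia, where 3.44% to 29.6% of all genes were called in that contrast.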

How the data were processed

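The authors deposited unnormalised UMI counts per gene and barcode for each library, made with Cell Ranger (version 7.0.1 per the file headers) on mm10. The paper's methods name another version of Cell Ranger. Whether introns were counted is not given in the sources used here. The 10 genes and all gene lists were chosen with earlier results of these data known. Barcodes over 500 genes and 1000 UMIs and under 25% mitochondrial UMIs were kept, and the 6% of each library with the highest doublet score were removed. Cells were clustered with leidenalg 0.10.2 on 15 principal components and named by markers. UMIs were summed per library and cell type (20 cells or more), and tested with edgeR 4.0.16 in R 4.3.3 (quasi-likelihood, TMM, 4 groups in 1 fit, Benjamini-Hochberg), with DESeq2 1.42.0 as an alternative. Other settings included adding unnamed clusters to the best-scoring type. The procedure was tested on simulated data. Log2 fold changes come from this fit. Each SE is the size of the log2 fold change divided by the square root of its quasi-likelihood F statistic. It therefore restates the test and is no separate measure of precision. P-values weigh a difference between groups against the spread between libraries, which was estimated jointly over the 4 groups and in part shared over genes. The named genes were the 10, Nr3c2, Hsd11b1, Hsd11b2, Fkbp4, up to 4 called genes of each list with the lowest adjusted p, and the 5 genes most like Fkbp5 in microglia. Hsp90ab1, the remaining called member of its list, was named after its values were seen. Counting error sets the limit for genes of few UMIs.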

Additional observations from a re-analysis of the deposited data

Results flagged for a closer look

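For 8 of 73 combinations of gene and cell type outside microglia, the response to MCAO/R differed between the genotypes by the interaction term of edgeR's quasi-likelihood test. Each had the smaller rise in Lrg1-/- mice. The same term called 2.67% of all genes in oligodendrocytes, 0.0927% in border-associated macrophages and 0.383% in endothelial cells. The 2 groups of Lrg1-/- libraries also carried more haemoglobin UMIs than the WT groups. Without cells over 1% haemoglobin UMIs, 10 combinations passed in place of 8, and the share of all genes was not counted under that setting. In oligodendrocytes, cluster c3.0 held 84.9% of the cells of MCAO/R + WT mice and 18.6% of MCAO/R + Lrg1-/- mice, and the part of this in the differences was not tested.

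In oligodendrocytes, the difference of log2 fold changes was -1.85 (adjusted p = 0.00901) for Sgk1, -1.07 (adjusted p = 0.00915) for Klf9 and -1.57 (adjusted p = 0.0103) for Ddit4, and these passed whichever library was left out. With cells thinned to 1000 UMIs, Ddit4 did not pass (adjusted p = 0.071). It was -1.80 for Fkbp5 (adjusted p = 0.0261) and -1.46 for Zbtb16 (adjusted p = 0.0226), each lost without any 1 of 6 libraries at adjusted p values of 0.0524 to 0.109, and with thinned cells (adjusted p = 0.344 for Fkbp5 and 0.0682 for Zbtb16). For Errfi1 it was -0.87 (adjusted p = 0.042), lost without any 1 of 7 libraries at adjusted p values of 0.0678 to 0.171, and with cells under 10% mitochondrial UMIs (adjusted p = 0.0634).

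Fkbp5 differed by -2.74 in border-associated macrophages (adjusted p = 0.0297), lost without any 1 of 8 libraries at adjusted p values of 0.052 to 0.133, and with thinned cells (adjusted p = 0.313). In endothelial cells it differed by -2.30 (adjusted p = 0.0119), lost without MCAO/R + WT replicate 2, sham + Lrg1-/- replicate 2 or sham + WT replicate 3 at adjusted p values of 0.0533 to 0.065.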

How the results depend on the processing

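No log2 fold change of a called combination changed sign under any alternative. With every cell thinned to 1000 UMIs, the calls after MCAO/R in Lrg1-/- mice went from 35 to 24, those between genotypes after MCAO/R from 34 to 24, those after sham surgery from 7 to 4 and those of the interaction from 8 to 5. Thinning removed UMIs and left 66 to 76 combinations to test. With no filter on low counts, 16 were called after sham surgery and 15 by the interaction, and with DESeq2 11 and 13. With unnamed clusters added to the type of their best marker score, 37, 30, 29, 10 and 8 combinations were called in the WT, Lrg1-/-, genotype, sham and interaction contrasts, and most losses were in vascular smooth muscle cells, which had 1 call in place of 5 in Lrg1-/- mice and 2 in place of 6 between genotypes after MCAO/R. The causes were not tested. These counts are over the combinations outside the contrasts that chose the genes, without the 7 that passed the filter only through MCAO/R libraries.

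The replicate numbers were shared between groups, and the correlations of same-numbered libraries ran from -0.293 to 0.243. Of 13 pairs per type, 3 were over 0.1 in astrocytes, 2 in endothelial cells, 1 in neurons and neuroblasts and 0 elsewhere. Deviations from the mean of so few libraries cancel within a group, so these values cannot tell whether same-numbered libraries were paired. With the replicate block, 1 combination was called after sham surgery and 5 by the interaction, and 29, 30 and 27 in the WT, Lrg1-/- and genotype contrasts of MCAO/R.

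Leaving out each library in turn gave 30 to 42 calls after MCAO/R in WT mice, 24 to 37 in Lrg1-/- mice, 18 to 36 between genotypes after MCAO/R, 3 to 10 after sham surgery and 3 to 10 for the interaction. The lone MCAO/R + WT library left in such a fit was assumed to vary like the other groups.

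Thinning also lowered the shares of microglia with a UMI. For Fkbp5 they were 3.05%, 4.55%, 37.3% and 14.1% in the sham + WT, sham + Lrg1-/-, MCAO/R + WT and MCAO/R + Lrg1-/- groups, and for Zbtb16 0.333%, 0.770%, 20.4% and 2.63%.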
